A study of Mus musculus with 6 samples.

Results

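The enzymes that break down phenylalanine and tyrosine, and those that make and renew the cofactor of the pathway's opening step, were followed through sorted mouse hepatocytes as 8 genes of the 17275 in the deposited table of read counts. The members were taken by gene symbol, and all 8 were in the table and passed the filter on low counts. They are Gch1, Pcbd1 and Qdpr, which serve the cofactor tetrahydrobiopterin, and Tat, Hpd, Hgd, Gstz1 and Fah, which carry tyrosine to its end products.

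In the liver, phenylalanine is hydroxylated to tyrosine with tetrahydrobiopterin as cofactor. The carbon of tyrosine then passes through 4-hydroxyphenylpyruvate, homogentisate, maleylacetoacetate and fumarylacetoacetate, and it leaves as fumarate and acetoacetate, so the route feeds both glucose and ketone body synthesis. Inherited loss of single enzymes of this route causes human disease, among them the tyrosinaemias and alkaptonuria, and hepatocytes are the main site of the route. Many enzymes of amino acid breakdown are known to be more abundant in hepatocytes near the portal vein, whereas the Wnt signal that drives Axin2 acts on hepatocytes near the central vein.

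The 6 libraries came from C57BL/6 mice of the genotype Axin2rtTA;TetO-H2B-GFP, in which the Axin2 promoter drives a doxycycline-dependent activator and the activator drives a nuclear green fluorescent histone. All groups shared this genotype and 7 days of doxycycline in the drinking water. Their age was 8 weeks at the start by the protocol, and postnatal day 63 by the sample labels. After removal of non-parenchymal cells, hepatocytes were sorted into fluorescent cells (3 libraries labelled Axin2-positive) and non-fluorescent cells (3 libraries labelled Axin2-negative). The replicate numbers 1, 2 and 3 stand for the sequencing index, which occurs once in each group. The labels do not say whether libraries came from separate mice or from pools, so p-values measure only the spread between these libraries, part of which may be technical. Replicate 2 differed from the others in reads of sex-linked genes, given below, so its libraries came from other mice.

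The libraries held 75882611 to 103386648 reads assigned to genes. Axin2, whose promoter drove the sort, was at 2.40, 22.6 and 24.2 CPM (counts per 1e6 reads, scaled by TMM, a correction for library composition) in libraries labelled Axin2-positive (1 to 3), against 3.04, 3.75 and 5.75 CPM in those labelled Axin2-negative (1 to 3). The library labelled Axin2-positive 1 therefore goes against its label, which limits every direction given below that draws on it. In the fit of 6 libraries, 0 of 12343 genes (0%) had an adjusted p under 0.05 by edgeR's quasi-likelihood test, and 279 had an unadjusted p under 0.05. DESeq2 and limma-voom also called 0. The replicate number as a block called 0 as well, with 1132 genes at an unadjusted p under 0.05. Without both libraries of replicate 1, which were left out because of what they showed, 7.44% of genes were called in a fit of 2 pairs that rests on 1 residual degree of freedom. Replicate 2 alone held many reads of the Y-linked gene Ddx3y (7164 in Axin2-positive 2 and 6759 in Axin2-negative 2, against 0 to 3 elsewhere), and few of Xist (4 and 5, against 32242 to 52151 elsewhere), so for replicate 2 sex and replicate number cannot be told apart. Hepatocyte markers of the central vein region (10 genes) and of the portal vein region (10 genes) each had reads in every library. In replicate 1 their median log2 differences, Axin2-positive minus Axin2-negative, were -0.048 and 0.0014. They were 2.63 and -3.85 in replicate 2, and 2.11 and -2.38 in replicate 3. Replicate 1 thus showed almost no separation of these regions. Summed levels over 8 Kupffer cell markers were 0.317 to 3.80 CPM in Axin2-positive and 2.86 to 25.3 CPM in Axin2-negative libraries, with Marco and C1qb at 0 reads in at least 1 library. Over 8 endothelial markers they were 1.36 to 44.1 CPM in Axin2-positive and 4.34 to 61.2 CPM in Axin2-negative libraries, and over 7 stellate cell markers 0.203 to 5.70 CPM in Axin2-positive and 0.946 to 5.93 CPM in Axin2-negative libraries. Over 5 bile duct markers they were 0.174 to 11.1 CPM in Axin2-positive and 2.71 to 11.5 CPM in Axin2-negative libraries. The part of these cells in the results below was not tested. At 0 reads in at least 1 library were also Lyve1, Tek and Cdh5 of the endothelial list, Des, Dcn, Col1a1, Rgs5 and Colec11 of the stellate list, and Krt19, Krt7 and Epcam of the bile duct list.

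Within the pairs of replicates 2 and 3, the members' Axin2-positive levels were 0.718 (Tat) to 1.32 (Gch1) times those of their partners. Over all 6 libraries 0 of the 8 members passed the test, against a background of 0% of all genes. That fit also called 0 of the 10 central vein markers and 0 of the 10 portal vein markers, so it cannot show whether a member differed. For all 8 members the groups overlapped, and among all tested genes 7.21% had groups that did not. The members' median log2 fold change (Axin2-positive over Axin2-negative) was 0.12, beside 0.00 over all genes tested. In replicates 2 and 3, where the sort separated Axin2, 5 members were higher and 3 lower in the Axin2-positive library of either pair. Tat, the entry enzyme of tyrosine breakdown, had the widest differences of the 8 in these pairs, lower in the Axin2-positive library of each. In libraries of many cells, fewer cells with a transcript and less of it per cell cannot be told apart.

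Promoter sequence is shown for the members at the extremes of these differences and for the last enzyme of the route. The windows run from 250 bases before to 50 bases after the transcription start, from RefSeq on GRCm38.p6, 5′ to 3′ on the strand of the gene, and capitals mark matches to 6 short motifs described below. Tat had the largest difference towards the Axin2-negative libraries (chr8:109990186-109990485, plus strand), Hgd had the largest fitted difference in the other direction (chr16:37579903-37580202, plus strand), and Fah acts last (chr7:84605893-84606192, minus strand).
Tat: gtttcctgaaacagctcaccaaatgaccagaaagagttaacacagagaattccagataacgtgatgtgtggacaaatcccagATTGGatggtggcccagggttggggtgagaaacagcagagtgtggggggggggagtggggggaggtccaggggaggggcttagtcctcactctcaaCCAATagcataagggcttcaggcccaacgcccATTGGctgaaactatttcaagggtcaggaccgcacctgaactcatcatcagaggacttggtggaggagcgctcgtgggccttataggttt
Hgd: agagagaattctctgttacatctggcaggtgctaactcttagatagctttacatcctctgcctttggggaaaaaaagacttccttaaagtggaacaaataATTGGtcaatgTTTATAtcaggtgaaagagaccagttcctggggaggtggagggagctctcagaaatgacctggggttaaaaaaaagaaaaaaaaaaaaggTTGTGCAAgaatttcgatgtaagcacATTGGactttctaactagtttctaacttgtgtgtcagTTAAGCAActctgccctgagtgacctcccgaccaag
Fah: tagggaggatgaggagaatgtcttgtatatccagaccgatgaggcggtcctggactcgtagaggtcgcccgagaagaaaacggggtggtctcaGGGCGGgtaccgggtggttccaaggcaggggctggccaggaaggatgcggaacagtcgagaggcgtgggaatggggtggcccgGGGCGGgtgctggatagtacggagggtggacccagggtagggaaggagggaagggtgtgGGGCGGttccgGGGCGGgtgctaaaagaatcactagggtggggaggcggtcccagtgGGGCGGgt

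The motifs, searched on both strands and with no overlaps among the matches in these windows, were the CCAAT box CCAAT, the GC box GGGCGG, the TATA box TATAAA, the TCF/LEF core CTTTGA, an HNF1 site GTTAAT and a C/EBP site TTNNGCAA. All 8 members matched the RefSeq promoter table, with 9 windows, since Gstz1 has 2 starts. The Tat window held 3 matches, all CCAAT boxes and the nearest ending 36 bases before the start. The Hgd window held 2 CCAAT boxes, a TATA box letter match that lies on the opposite strand, and 2 C/EBP matches. The Fah window held 5 GC boxes and no other of these motifs. CCAAT was found in 5 of the 8 members and in 37.4% of the 32851 promoter windows of the same length, and the GC box in 6 members and 35.7% of windows. The TCF/LEF core was found in Pcbd1 alone among the members and in 16.0% of windows. GC content was 53.7% for Tat, 41.0% for Hgd and 64.3% for Fah, beside a median of 52.7% over all windows. These matches are letters in a window and say nothing of binding.

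Per length, the first enzymes of tyrosine breakdown, Hpd and Tat, had the highest levels. Levels between genes were compared as RPKM, CPM divided by the length in kilobases of the annotated transcript. Hpd, 4-hydroxyphenylpyruvate dioxygenase, was highest, at 1143 to 1668 RPKM over the 6 libraries, and Tat followed at 706 to 1569 RPKM. The Hpd level exceeded the Tat level in 6 of 6 libraries, although their ranges overlapped. Gstz1 (388 to 469 RPKM), Hgd (304 to 526 RPKM) and Fah (365 to 444 RPKM) formed a middle group with ranges that overlapped. Their order changed from library to library: Gstz1 exceeded Hgd in 2 of 6 and Hgd exceeded Fah in 3 of 6. Pcbd1 (243 to 304 RPKM) and Qdpr (185 to 341 RPKM) also overlapped, and Pcbd1 lay below the middle group in every library. Gch1, the committing enzyme of tetrahydrobiopterin synthesis, was lowest at 45.9 to 74.8 RPKM and below all other members without overlap. Together the 8 genes took 0.563%, 0.690% and 0.847% of all reads in libraries labelled Axin2-positive (1 to 3), against 0.565%, 0.792% and 0.915% in those labelled Axin2-negative (1 to 3).

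Tetrahydrobiopterin is made from GTP, is oxidised as phenylalanine is hydroxylated, and is then renewed. Gch1 (chromosome 14, 47153895 to 47189413, minus strand), GTP cyclohydrolase, commits GTP to its synthesis. It was at 131, 182 and 208 CPM in libraries labelled Axin2-positive (1 to 3), against 127, 138 and 202 CPM in those labelled Axin2-negative (1 to 3). The difference came almost wholly from replicate 2, where the log2 difference was 0.40, against 0.04 in replicates 1 and 3. Its log2 fold change in the fit of 6 libraries was 0.16 (SE 0.25; edgeR adjusted p = 0.999), with a 95% interval of 0.729 to 1.70 in fold. It was 0.0073 without Axin2-positive 3 and was 0.39 without Axin2-negative 3.

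Pcbd1 (chromosome 10, 61089331 to 61094324, plus strand) encodes the dehydratase that starts the renewal of the oxidised cofactor and is also known as a dimerisation cofactor of the transcription factor HNF1. Its level was 223, 215 and 240 CPM in libraries labelled Axin2-positive (1 to 3), against 222, 192 and 212 CPM in those labelled Axin2-negative (1 to 3). Each Axin2-positive library lay above its partner, and the groups still overlapped. In replicate 1 the log2 difference was 0.0066, within its standard error of 0.014 from counting alone. The log2 fold change was 0.11 (SE 0.12; edgeR adjusted p = 0.999), with a 95% interval of 0.888 to 1.32 in fold. It was 0.059 without Axin2-negative 2.

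Qdpr (chromosome 5, 45434021 to 45450236, minus strand), quinoid dihydropteridine reductase, completes the renewal. It was at 259, 470 and 431 CPM in libraries labelled Axin2-positive (1 to 3), against 255, 424 and 382 CPM in those labelled Axin2-negative (1 to 3). Both libraries of replicate 1 lay below all 4 others, and the mean of a pair varied by 1.74-fold between replicate numbers, while within pairs the fold was 1.01, 1.11 and 1.13. The log2 fold change was 0.13 (SE 0.30; edgeR adjusted p = 0.999; 95% interval 0.662 to 1.81 in fold). With the replicate number as a block it was 0.12 (SE 0.09, edgeR adjusted p = 0.563, 95% interval 0.916 to 1.28 in fold). In the fit by group alone it was 0.35 without Axin2-positive 1. It turned to -0.06 without Axin2-negative 1 and to -0.04 without Axin2-positive 2. Of its 1788 annotated exonic bases, 332 are shared with an antisense transcript, and the use of strand in counting is not given in the sources used here.

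**Figure D1:**
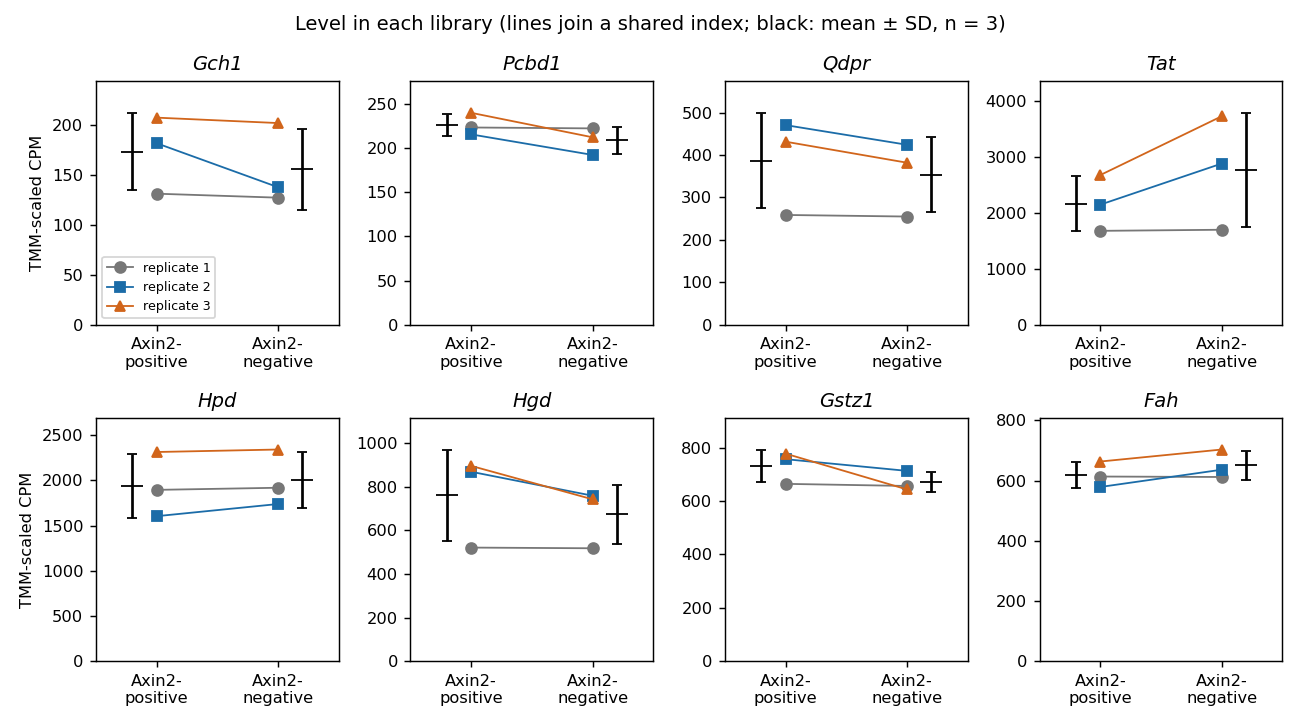
TMM-scaled CPM of the 8 genes in each library, with Axin2-positive left and Axin2-negative right in each panel; lines join libraries that share an index, and black marks give the mean ± SD (n = 3). Groups overlapped in every panel, replicate 1 was flat in all, and Tat had the steepest lines, at 2146 and 2675 CPM in Axin2-positive against 2880 and 3726 CPM in Axin2-negative libraries of replicates 2 and 3.

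Tat (chromosome 8, 109990437 to 109999803, plus strand), tyrosine aminotransferase, removes the amino group of tyrosine and is a classical target of glucocorticoids in liver. It was at 1678, 2146 and 2675 CPM in libraries labelled Axin2-positive (1 to 3), against 1697, 2880 and 3726 CPM in those labelled Axin2-negative (1 to 3). Within pairs the Axin2-positive level was 0.988, 0.745 and 0.718 times that of its partner, so it was lower in 3 of 3 pairs, most of all in replicates 2 and 3. The group means were 2166 ± 499 CPM in Axin2-positive and 2768 ± 1019 CPM in Axin2-negative libraries (SD, n = 3 each), and the log2 fold change was -0.35 (SE 0.33; edgeR adjusted p = 0.999; 95% interval 0.446 to 1.37 in fold). With the replicate number as a block over 6 libraries it was -0.31 (SE 0.14, edgeR adjusted p = 0.450, 95% interval 0.630 to 1.04 in fold).

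Single libraries moved the Tat value of the fit by group alone by more than 1.5 times. It was -0.61 without Axin2-negative 1 and -0.08 without Axin2-negative 3. In the fit of replicates 2 and 3 with the replicate block, Tat was the 1 member of 8 that was called, lower, at a log2 fold change of -0.45 (SE 0.09; edgeR adjusted p = 0.0481; 95% interval 0.626 to 0.857 in fold). That fit called 4.01% of all genes lower and 3.43% higher. Against a fold of 1.5 it called 0 members, with an adjusted p of 1 for Tat, beside 1.68% of all genes (0.888% lower and 0.791% higher). In the same libraries the 10 periportal markers had median log2 differences of -3.85 in replicate 2 and -2.38 in replicate 3, and the 10 pericentral markers 2.63 and 2.11; their part in the Tat difference was not tested. In replicate 2, 30.2% of all tested genes, not matched for level, differed by more than Tat in either direction, and in replicate 3 21.6% did.

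Hpd (chromosome 5, 123171807 to 123182727, minus strand) converts 4-hydroxyphenylpyruvate to homogentisate and is the enzyme blocked by the drug nitisinone. Its level was 1895, 1605 and 2314 CPM in libraries labelled Axin2-positive (1 to 3), against 1919, 1739 and 2341 CPM in those labelled Axin2-negative (1 to 3). The order of the replicate numbers was the same in both groups, with replicate 3 highest and replicate 2 lowest, and the fold within pairs was 0.988, 0.923 and 0.988. The log2 fold change was -0.05 (SE 0.20; edgeR adjusted p = 0.999; 95% interval 0.689 to 1.36 in fold). Its sign turned to 0.07 without Axin2-positive 2 and to 0.09 without Axin2-negative 3, and it was -0.19 without Axin2-positive 3. The gene's span overlaps Psmd9 on the other strand, with 0 shared exonic bases.

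Hgd (chromosome 16, 37580153 to 37632020, plus strand), homogentisate 1,2-dioxygenase, opens the aromatic ring. It was at 521, 868 and 895 CPM in libraries labelled Axin2-positive (1 to 3), against 518, 759 and 742 CPM in those labelled Axin2-negative (1 to 3). As for Qdpr, replicate 1 was lowest in both groups, and within pairs the fold was 1.01, 1.14 and 1.21. Its log2 fold change of 0.18 (SE 0.27; edgeR adjusted p = 0.999; 95% interval 0.717 to 1.79 in fold) was the highest of the 8. In the fit of replicates 2 and 3 it was 0.23 (edgeR adjusted p = 0.219). It was 0.39 without Axin2-positive 1 and 0.02 without Axin2-negative 1.

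Gstz1 (chromosome 12, 87147165 to 87164723, plus strand), the zeta class glutathione transferase, isomerises maleylacetoacetate. It was at 664, 756 and 777 CPM in libraries labelled Axin2-positive (1 to 3), against 656, 713 and 643 CPM in those labelled Axin2-negative (1 to 3). The Axin2-positive library was higher in 3 of 3 pairs, with folds of 1.01, 1.06 and 1.21, and the groups overlapped because Axin2-negative 2 lay above Axin2-positive 1. The log2 fold change was 0.13 (SE 0.13; edgeR adjusted p = 0.999; 95% interval 0.875 to 1.36 in fold). It was 0.082 without Axin2-positive 3 and 0.19 without Axin2-positive 1. Of its 5088 exonic bases, 465 are shared with Pomt2 on the other strand, which was at 18.7 to 24.3 CPM in all 6 libraries.

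Fah (chromosome 7, 84585159 to 84606722, minus strand), fumarylacetoacetate hydrolase, releases fumarate and acetoacetate. It was at 614, 579 and 664 CPM in libraries labelled Axin2-positive (1 to 3), against 612, 637 and 704 CPM in those labelled Axin2-negative (1 to 3). Within pairs the log2 difference was 0.0036, -0.14 and -0.08, so the Axin2-positive library was lower in replicates 2 and 3 and level with its partner in replicate 1. The log2 fold change was -0.07 (SE 0.13; edgeR adjusted p = 0.999), with a 95% interval of 0.763 to 1.19 in fold. It was -0.13 without Axin2-positive 3 and -0.0099 without Axin2-negative 3.

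**Figure D2:**
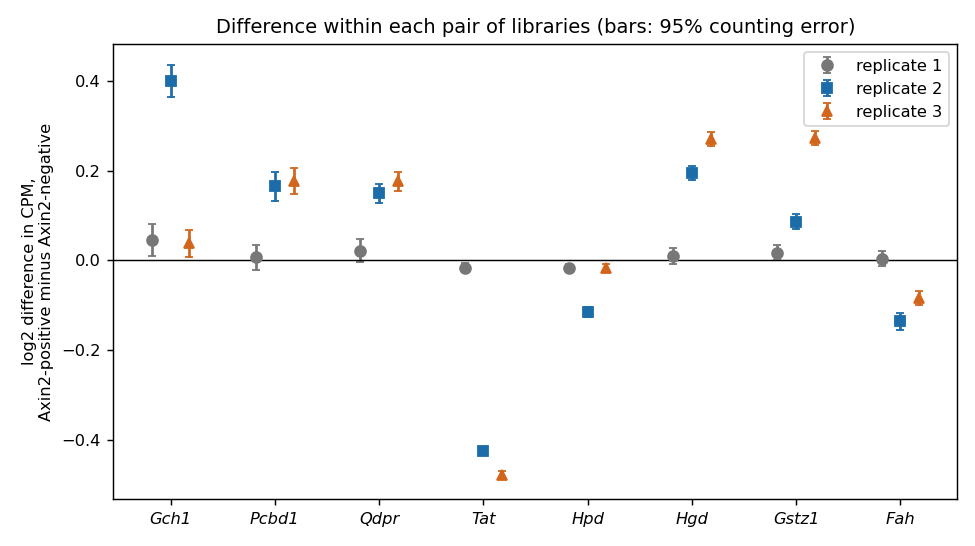
Log2 difference in CPM, Axin2-positive minus Axin2-negative, within each pair of libraries that share an index, for the 8 genes; bars are 95% counting error. In replicate 1 the gene farthest from 0 is Gch1, at 0.044, and Tat lies at -0.42 and -0.48 in replicates 2 and 3.

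Counting error was small against most of these differences in replicates 2 and 3, but not in replicate 1. With 11077 to 326856 reads per member and library, the standard error of a log2 difference within a pair was 0.0039 to 0.018 from counting alone, and it covers neither scaling nor variation between preparations. Differences exceeded 2 such errors for 4 of 8 members in replicate 1 and for 8 of 8 in replicates 2 and 3. The median absolute log2 difference of the members was 0.017, 0.16 and 0.18 in replicates 1, 2 and 3, beside 0.057, 0.25 and 0.21 over all tested genes. The members' median was thus below that of all genes in each pair, which is a description with no test. The tested genes were not matched to the members for level. They include genes with far fewer reads, such as Slc7a5 (38 to 496 reads), for which counting error is larger. Single members lay above the median gene, namely Tat and Gch1 in replicate 2 and Tat, Hgd and Gstz1 in replicate 3. The spread between replicate numbers was larger than the difference within pairs for several members. The mean of a pair varied between numbers by 1.90-fold for Tat, 1.74-fold for Qdpr, 1.58-fold for Gch1 and Hgd and 1.39-fold for Hpd, but by 1.11-fold for Pcbd1 and Gstz1 and 1.12-fold for Fah. SEs of the fit by group alone include this spread. With the replicate block over 6 libraries the members' SEs ran from 0.091, for Pcbd1, to 0.14, for Tat.

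Without replicate 1, in the fit of replicates 2 and 3 with the block, the other members had log2 fold changes of 0.22 for Gch1, 0.18 for Gstz1, 0.17 for Pcbd1, 0.16 for Qdpr, -0.06 for Hpd and -0.11 for Fah. For the 7 members other than Tat the edgeR adjusted p ranged from 0.219 to 0.710 in that fit. Among these 7 the 95% intervals there reach up to a fold of 1.46, for Gch1, and down to 0.774, for Fah, and all 7 include no difference. That fit has 1 residual degree of freedom and left out replicate 1 because of what it showed. Its intervals therefore do not exclude larger differences.

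**Figure D3:**
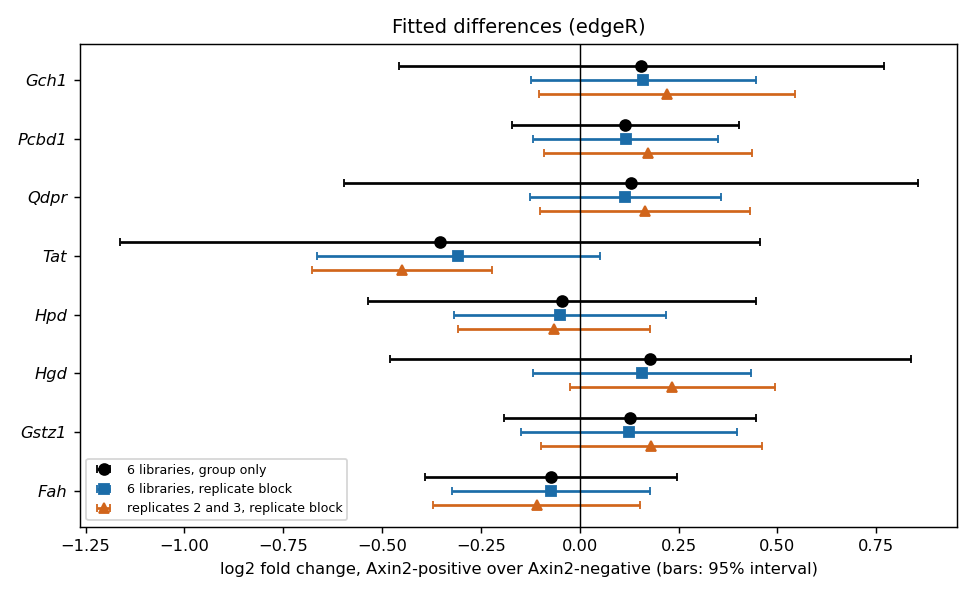
Fitted log2 fold change with its 95% interval for the 8 genes, over 6 libraries by group only, over 6 libraries with the replicate block, and over replicates 2 and 3 with the block. Of the 24 intervals, the Tat interval of the fit of replicates 2 and 3 (-0.68 to -0.22) is the only one that does not include 0.

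In the authors' deposited table of FPKM values per transcript, with 1 value per group, all 11 transcripts of the 8 genes had the status OK, and the lowest p was 0.452, for Tat. None of the 11 had a q under 0.05 in the authors' deposited table, where 97 of 13843 transcripts of that status (0.701%) did. The authors' deposited table gives Tat as 899 FPKM in Axin2-positive and 1174 FPKM in Axin2-negative cells (q = 0.9995). In the authors' deposited table Hpd is at 1279 FPKM in Axin2-positive and 1320 FPKM in Axin2-negative cells, and Fah is at 412 FPKM in Axin2-positive and 439 FPKM in Axin2-negative cells. The authors' deposited table has the cofactor genes slightly higher in Axin2-positive cells, Qdpr at 302 FPKM in Axin2-positive and 285 FPKM in Axin2-negative cells, Pcbd1 at 347 FPKM in Axin2-positive and 317 FPKM in Axin2-negative cells, and Gch1 at 66.7 FPKM in Axin2-positive and 60.4 FPKM in Axin2-negative cells. For both Hgd and Gstz1, 1 transcript in the authors' deposited table held most of the level. The coding transcript of Hgd was at 419 FPKM in Axin2-positive and 382 FPKM in Axin2-negative cells, and a noncoding one at 22.0 FPKM in Axin2-positive and 18.6 FPKM in Axin2-negative cells in the authors' deposited table. The main Gstz1 transcript was at 425 FPKM in Axin2-positive and 388 FPKM in Axin2-negative cells, and its other transcripts in the authors' deposited table were at 3.70 to 5.14 FPKM. The main transcript of each gene differed in the direction of the read counts, whereas 1 minor Gstz1 transcript in the authors' deposited table did not, at 3.93 FPKM in Axin2-positive and 4.92 FPKM in Axin2-negative cells.

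Genes next to the pathway were read from the same fits, and none of 35 tested was called over 6 libraries. Among 5 other tetrahydrobiopterin genes the median log2 fold change was -0.15, and 0 were called in the fit of replicates 2 and 3. Spr, sepiapterin reductase, which makes tetrahydrobiopterin in its closing step, differed most (-0.27, SE 0.10; edgeR adjusted p = 0.999). It was at 67.1, 56.7 and 57.2 CPM in libraries labelled Axin2-positive (1 to 3), against 70.7, 72.8 and 74.6 CPM in those labelled Axin2-negative (1 to 3), and its groups did not overlap, as for 7.21% of all genes. In the fit of replicates 2 and 3 it was not called (-0.37; edgeR adjusted p = 0.0636). Of 12 enzymes of side routes (median -0.07), Got1 differed most. Got1, the cytosolic aspartate aminotransferase, was at 256, 239 and 299 CPM in libraries labelled Axin2-positive (1 to 3), against 253, 449 and 504 CPM in those labelled Axin2-negative (1 to 3). Its log2 fold change was -0.60 (SE 0.27; edgeR adjusted p = 0.999), and it was the 1 gene of the 12 called, lower, in the fit of replicates 2 and 3 (-0.83, edgeR adjusted p = 0.0210), beside 7.44% of all genes called in that fit.

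The 4 tested transporters had a median log2 fold change of 0.53 and differed in both directions, with 0 called over 6 libraries and 2 called higher in the fit of replicates 2 and 3, beside 3.43% of all genes. Slc16a10 carries aromatic amino acids across the plasma membrane. It was at 32.8, 192 and 189 CPM in libraries labelled Axin2-positive (1 to 3), against 31.7, 73.0 and 87.4 CPM in those labelled Axin2-negative (1 to 3). Replicates 2 and 3 were above replicate 1 in both groups, and within these pairs the Axin2-positive library was the higher. Its log2 fold change in the fit of 6 libraries was 1.10 (SE 0.71; edgeR adjusted p = 0.999). In the fit of replicates 2 and 3 Slc16a10 was called higher at 1.25, also against a fold of 1.5 (edgeR adjusted p = 0.0310), beside 0.791% of all genes called higher in that test. Slc7a5, the light chain of a transporter of large neutral amino acids, had the largest log2 fold change of the 4 tested transporters at 2.05 (SE 0.94; edgeR adjusted p = 0.999). It was at 0.587, 5.28 and 5.77 CPM in libraries labelled Axin2-positive (1 to 3), against 0.397, 0.684 and 1.73 CPM in those labelled Axin2-negative (1 to 3). The fit of replicates 2 and 3 called it higher (edgeR adjusted p = 0.0253), though not against a fold of 1.5 (edgeR adjusted p = 0.0626). Slc43a1 and Slc3a2, named after their values were seen, were not called in any of these fits. Slc43a1, a transporter of large neutral amino acids, had a log2 fold change of -0.44 (SE 0.32; edgeR adjusted p = 0.999), and Slc3a2, the heavy chain that pairs with Slc7a5, one of -0.05 (SE 0.12; edgeR adjusted p = 0.999).

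Genes that use the end products, fumarate and acetoacetate, had a median log2 fold change of 0.00 over 5 genes. Oxct1, which activates acetoacetate outside the liver, differed most at -0.87 (SE 0.53; edgeR adjusted p = 0.999) but stayed at or under 1.26 CPM in all libraries. Bdh1, which interconverts acetoacetate and 3-hydroxybutyrate, was the 1 gene of the 5 called in the fit of replicates 2 and 3, higher at 0.76 (edgeR adjusted p = 0.0236), beside the same 7.44% of all genes, and is named here after its values were seen. Of 9 regulators (median -0.16), Ppargc1a differed most at -0.87 (SE 0.73; edgeR adjusted p = 0.999), and the fit of replicates 2 and 3 called it and Cebpb lower, 2 of 9 beside 4.01% of all genes called lower. Cebpb, named after its values were seen, was at 44.3, 63.7 and 79.9 CPM in libraries labelled Axin2-positive (1 to 3), against 45.6, 118 and 143 CPM in those labelled Axin2-negative (1 to 3). Nr3c1, the glucocorticoid receptor, also named after its values were seen, had a log2 fold change of -0.13 (SE 0.18; edgeR adjusted p = 0.999).

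**Figure D4:**
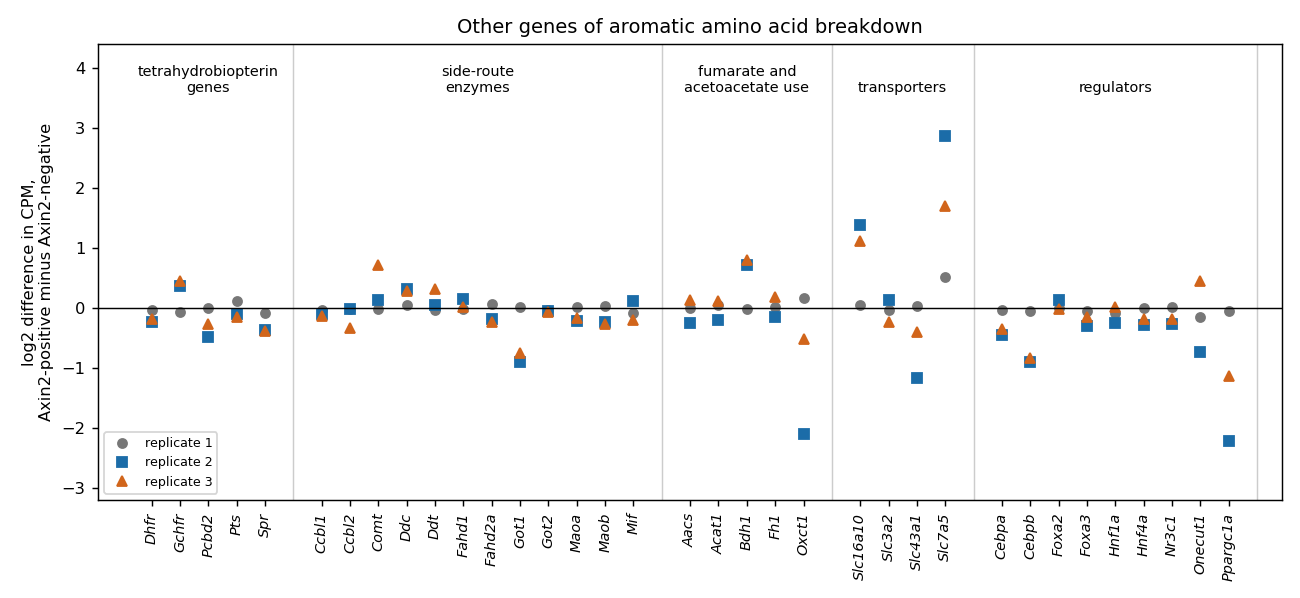
Log2 difference in CPM, Axin2-positive minus Axin2-negative, within each pair for 35 other genes in 5 lists. In replicates 2 and 3 the points run down to -2.22 and -1.14 (both Ppargc1a) and up to 2.86 and 1.71 (both Slc7a5); Oxct1 (-2.11 and -0.52) and Slc43a1 (-1.16 and -0.40), which were not called, also lie below 0.

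The genes most like each member in pattern were found by Pearson's correlation of log2 CPM over the 6 libraries among 7228 other genes with a mean of at least 10 CPM. For Tat these were Glt1d1 (r = 0.996) and Upp2 (r = 0.992), and Upp2 was at 129, 200 and 308 CPM in libraries labelled Axin2-positive (1 to 3), against 125, 288 and 478 CPM in those labelled Axin2-negative (1 to 3). For Hgd they were Slc22a18 (r = 0.999) and Inpp5f (r = 0.996), for Qdpr Ankrd13c and Arf3 (both r = 0.997), and for Gch1 Gne (r = 0.996) and Degs1 (r = 0.994). Pcbd1 was most like Nr1i3, the nuclear receptor CAR, and Hnrnph1 (both r = 0.991), and Nr1i3 was at 151, 143 and 198 CPM in Axin2-positive libraries against 151, 80.9 and 126 CPM in Axin2-negative ones. For Hpd the closest were Ptpra (r = 0.997) and Mgea5 (r = 0.992), for Gstz1 Slc35b2 (r = 0.993) and Hdac3 (r = 0.992), and for Fah Dlg3 (r = 0.998) and Herc6 (r = 0.992). The points of each correlation share replicate numbers in pairs, and the genes were picked as the closest of many, so no p is given.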

How the data were processed

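Hepatocyte RNA from 6 libraries was sequenced after a stranded mRNA preparation, per the labels' protocols. The authors deposited raw read counts by gene symbol, and FPKM values by transcript with their p-values and q-values. TopHat2 2.0.11 aligned the reads to mm10 and Cuffdiff 2.2.2 made the FPKM values, per the submitters' processing notes. How reads were assigned to genes, and whether by strand, is not given in the sources used here.

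The main test was edgeR's quasi-likelihood F test by group (edgeR 4.0.16, R 4.3.3, default filter, TMM scaling), with Benjamini-Hochberg adjustment over all tested genes, a threshold of 0.05 and SEs from the F statistic. It was tested on simulated data. The simulated libraries were independent, with no effect of replicate number and no pair without a contrast, so they do not show how the test performs on these data. CPM values use TMM-scaled totals, with an offset of 0.05 in log2 differences within pairs. Alternatives were DESeq2 1.42.0, limma 3.58.1 (voom), other scalings and filters, and an adjusted p threshold of 0.01. Further ones were the replicate block, and leaving out single libraries or replicate 1. Deviations from the group means of libraries that share a number correlated across genes at 0.68, 0.82 and 0.75, so the shared index was taken as pairing them. Coordinates and transcript lengths come from GENCODE on GRCm38, and promoters from RefSeq on GRCm38.p6.

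Members and lists were chosen with earlier results of these data known. The text names all members, in each neighbouring list the gene with the largest absolute log2 fold change and any gene called over 6 libraries, with the block, or against a fold of 1.5, and the 2 genes most like each member.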

Additional observations from a re-analysis of the deposited data

How the results depend on the processing

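Over 19 alternatives, 147 of 152 log2 fold changes of the 8 members kept their direction and their side of the threshold. This count says little of robustness. The alternative of an adjusted p under 0.01 is the main fit itself, so its values could not move. The test against a fold of 1.5 reuses the log2 fold changes of the fit of replicates 2 and 3. The main fit called 0 genes, and so did most alternatives, so few values could change side. The signs that turned were those of Qdpr (-0.060 to 0.35 over the fits that leave out 1 library each) and Hpd (-0.19 to 0.087). The remaining value was Tat, called in the replicate block fit without both libraries of replicate 1. Without both libraries of replicate 1 the replicate block fit called 922 genes and 1 member; against a fold of 1.5 it called 208 genes and 0 members. Leaving out 1 library each called 0 to 6 genes, 6 of them without the library labelled Axin2-positive 1, and 0 members. The cause was not tested. The replicate block over 6 libraries changed no call, with 0 genes and 0 members called and values of -0.31 for Tat and 0.12 for Qdpr. Block fits that drop the pair of replicate 2, or that of replicate 3, chosen after seeing the data, also called 0 genes. Each member had at least 11077 reads per library, so counting error was small beside the differences between replicate numbers.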
